A study of Cucumis sativus with 6 samples.

Results

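Among 24317 transcript models measured in the shoot apex of cucumber (Cucumis sativus), the 100 whose level varied least over 6 RNA sequencing libraries are described here. These candidates for reference genes were chosen by value. Levels were taken as CPM, that is, counts scaled so that every library has the same total. From these, 795 models on unplaced scaffolds (UNG identifiers) and the 100 most abundant other models were left out, and a mean of at least 50 CPM was required. Of the 4197 candidates that remained, the 100 with the lowest coefficient of variation (CV, the SD over the mean across all 6 libraries) form the stable set. The choice used every library of both growth systems, so its CPM values are given as a description, with no test.

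The apices came from seedlings of genotype 9930, an inbred cucumber line used for a reference genome, at 6 dpg. Of the libraries, 3 were labelled soil plate (7 apices pooled in each, from seedlings over soil in an agar dish under nylon mesh) and 3 germination pouch (20 apices pooled in each, from seedlings in wet pouches). All seedlings had 16 h of light and 8 h of dark at 22 degrees, and the labels name no transgene or mutation. The number of pooled apices differs with the growth system, so the effects of both cannot be told apart. The sample titles call the replicates biorep, read here as biological replicates, but the labels do not say that they came from separate sowings. The p-values measure the spread between these samples, which may still be technical.

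Libraries held 28.9 to 47.8 M (mega) estimated counts. The deposited file names give the opposite growth system for all 6 libraries, so each direction below is that of the labels and would turn round if the file names were right. The CV over all 6 libraries does not depend on which is right. Of the 24317 identifiers, 0 matched the RefSeq table of assembly Cucumber_9930_V3 (23999 genes), and no file given here links an identifier to a gene name. The members are therefore called by identifier, their functions are not given, and the labelled tissue was not checked against marker genes.

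A reference gene is a transcript against which others are expressed in quantitative PCR. It is useful where its level per unit of input RNA stays even across the conditions compared, because any change in it passes into every ratio. Genes for actin, tubulin, ubiquitin, elongation factors and subunits of basic cell machinery are common choices in plants. Practice usually asks for several such genes at a moderate level and checks the ratios among them.

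The most even transcript was CsaV3_3G007560.1, a model of 2066 bases. It had 152.9, 137.1 and 147.6 CPM in soil plate replicates 1 to 3, against 142.7, 146.4 and 151.6 CPM in pouch replicates 1 to 3. The groups overlapped, the highest and the lowest library were both soil plate, and the CV was 3.997%. CsaV3_1G005100.1 (1896 bases) followed with a CV of 4.10%. Its levels were 113.6, 114.3 and 118.3 CPM in soil plate, against 123.5, 109.6 and 114.4 CPM in pouch. Here the extremes were both pouch libraries, with the soil plate libraries between them.

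CsaV3_5G006700.1 (2574 bases) had 67.5, 70.8 and 65.1 CPM in soil plate, against 61.8, 68.4 and 65.2 CPM in pouch. CsaV3_7G028820.1 (1662 bases) had 58.7, 54.6 and 55.7 CPM in soil plate, against 60.3, 54.7 and 60.2 CPM in pouch. Both had a CV of 4.67%, and in both the groups overlapped. CsaV3_6G033830.1 (3841 bases) had 145.6, 151.1 and 145.8 CPM in soil plate, against 157.0, 138.6 and 139.6 CPM in pouch, with a CV of 4.76%. CsaV3_1G028590.1 (5944 bases) had 60.7, 62.6 and 55.7 CPM in soil plate, against 60.1, 55.3 and 58.6 CPM in pouch, with a CV of 4.91%. In these 6 members, the only ones with a CV under 5%, pouch replicate 1 was the highest library in 3 and the lowest in 1.

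**Figure D1:**
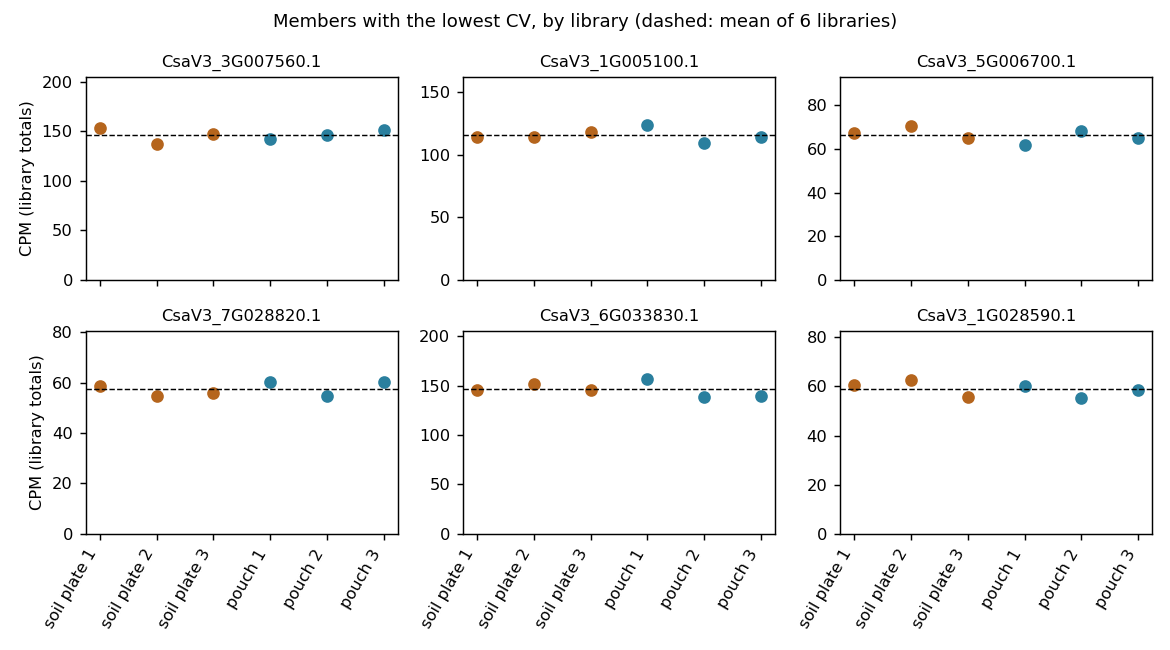
CPM relative to library totals (vertical axis, from 0) in the 3 soil plate and 3 pouch libraries for the 6 members with the lowest CV; each point is 1 library and the dashed line is the mean of 6. In CsaV3_3G007560.1 the points lie between 137.1 and 152.9 CPM, and in no panel do the groups separate.

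Across the set the CV ran from 3.997 to 9.57% with a median of 8.24%, against a median of 25.8% over the 4197 candidates. The ratio of the highest to the lowest library had a median of 1.24 and reached 1.35. A total of 25 members had a CV over 9%, so many sat close to the limit. The last member inside, CsaV3_7G028150.1, had a CV of 9.57%. Its 50.9, 53.7 and 57.5 CPM in soil plate stood against 66.9, 56.0 and 56.2 CPM in pouch, with replicate 1 of the pouch apart from the other libraries. The first models outside were CsaV3_3G032020.1, with a CV of 9.59%, and CsaV3_1G029120.1, with 9.68%.

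Counting error was a small part of this spread. At the counts of these libraries, read sampling alone gives a CV of 0.643 to 2.32% for the members, with a median of 1.78%. The observed CV was 2.13 to 14.2 times that value, with a median of 4.32. The tables hold reads without molecular identifiers, and the sampling CV covers the counting of reads only. The lowest count of any member in any library was 1375.

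Member levels spanned 51.5 to 674 CPM, with a median of 87.4 CPM against 93.9 CPM for the candidates. Of the 2271 candidates from 50 to 100 CPM, 60 were members (2.64%), and of the 1178 from 100 to 200 CPM, 31 (2.63%). From 200 to 500 CPM there were 5 members among 601 candidates (0.832%), and above 500 CPM 4 among 147 (2.72%). The limits of the rule set this range, and the share of members was about the same in 3 of the 4 bands.

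The most abundant member, CsaV3_2G003360.1 (1363 bases), had 708.4, 684.0 and 625.3 CPM in soil plate, against 766.6, 629.5 and 631.8 CPM in pouch. CsaV3_2G006590.1, the shortest member at 426 bases, had 730.5, 657.7 and 601.6 CPM in soil plate, against 559.2, 625.7 and 602.8 CPM in pouch. CsaV3_1G009950.1 (2872 bases) had 538.3, 559.1 and 498.7 CPM in soil plate, against 611.5, 652.0 and 584.1 CPM in pouch. In the last of these every soil plate library lay below every pouch library, although its CV was 9.46%. The fourth member above 500 CPM, CsaV3_6G017110.1, held fractional counts and so shared reads with a similar sequence.

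Per length, the order changed. In the deposited TPM values, which divide counts by effective length and by a total over all models, CsaV3_2G006590.1 was the highest member, with 3302, 3069 and 2849 TPM in soil plate, against 2730, 3244 and 3425 TPM in pouch. CsaV3_2G003360.1 had 462.6, 449.3 and 406.4 TPM in soil plate, against 495.2, 469.1 and 490.7 TPM in pouch. These levels did not overlap between the 2 members in any library. The longest member, CsaV3_5G038500.1 (7272 bases), had 7.34, 7.40 and 6.08 TPM in soil plate, against 7.06, 7.19 and 8.80 TPM in pouch.

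At the low end, CsaV3_1G011870.1 had 52.7, 52.8 and 48.2 CPM in soil plate, against 56.6, 47.4 and 51.3 CPM in pouch. CsaV3_4G030040.1 had 56.0, 56.3 and 47.3 CPM in soil plate, against 47.5, 49.1 and 55.7 CPM in pouch. CsaV3_1G004650.1, which held fractional counts, had 57.1, 45.4 and 54.9 CPM in soil plate, against 48.0, 55.7 and 54.4 CPM in pouch. In all 3 the groups overlapped.

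Transcript length was not named in the rule. CPM is not divided by length, however, so the minimum of 50 CPM favours longer models. Of all models 32.5% were under 1000 bases, so the candidates are the closer comparison for the members. Member models had a median length of 2575.5 bases, against 2244 bases for the candidates and 1518 for all models. The 100 candidates with the lowest CV under the TMM scaling described below had a median of 2272 bases. Only 2 members (2%) were under 1000 bases, against 8.46% of the candidates, and 10 (10%) were over 5000 bases, against 6.62%. Fractional counts, which mark reads divided between similar sequences, occurred in 17 members (17%) and in 18.5% of the candidates. No member had the same counts in all libraries as any other model.

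By the chromosome number written in the identifiers, members came from all 7 chromosomes. Chromosome 3 had 23 of them (2.73% of its candidates), chromosomes 1 and 6 had 16 each (2.61% and 2.26%), and chromosome 7 had 15 (3.42%). Chromosome 4 had 13 (2.49%), chromosome 5 had 10 (1.86%) and chromosome 2 had 7 (1.31%). Members that stood next to each other in identifier order numbered 0 pairs.

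The remaining spread among members was not even over the libraries. Soil plate replicate 3 was the lowest library for 41 of the 100 members, and it was also the lowest for 32.1% of the candidates. The median member stood at -0.08 there on the log2 scale, relative to its mean over 6 libraries, against 0.03 in soil plate replicates 1 and 2. In pouch replicates 1, 2 and 3 it stood at 0.02, 0.0004 and 0.02. The candidates, by contrast, lay at -0.06, -0.13 and -0.25 in soil plate replicates 1 to 3, against -0.03, 0.22 and 0.20 in pouch replicates 1 to 3. On library totals the typical candidate was thus lower in soil plate and higher in pouch replicates 2 and 3. The members' narrower range follows from their choice by CV, and in soil plate replicate 3 their median was below 0 as well.

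**Figure D2:**
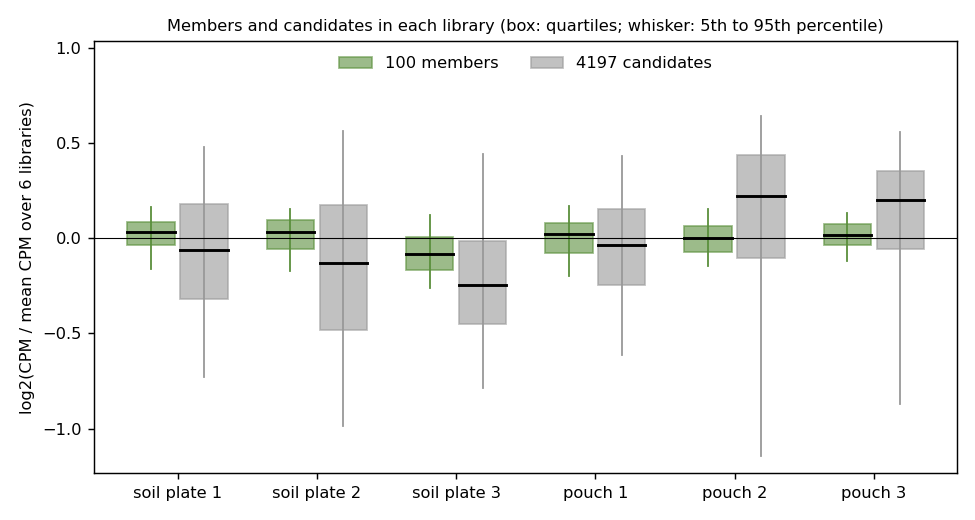
Log2 of CPM over the mean CPM of the 6 libraries (vertical axis) for the 100 members and the 4197 candidates in each library; boxes show the quartiles, black lines the median and whiskers the 5th to 95th percentile. Member medians lie from -0.08 to 0.03, and candidate medians from -0.25 in soil plate replicate 3 to 0.22 in pouch replicate 2.

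Summed over the set, members held 12164 ± 536 CPM (SD, n = 3) in soil plate libraries and 12322 ± 57.8 CPM (SD, n = 3) in pouch libraries. Within groups, the median CV of a member was 8.49% among soil plate libraries and 6.23% among pouch libraries, against 15.9% and 15.3% for the candidates. The difference between the group means held a median of 10.4% of a member's squared deviations and 58.1% of a candidate's. The CV that chose the members includes the difference between the groups, so these values are a description of the choice.

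On library totals, the groups failed to overlap in 6 members, 1 higher and 5 lower in soil plate. Over the candidates such separation occurred in 51.8% (13.9% higher and 37.9% lower). CsaV3_5G001560.1, the member with every soil plate library above, had 121.5, 120.0 and 119.0 CPM in soil plate, against 93.8, 118.9 and 112.7 CPM in pouch. The margin was 0.087 CPM, and only pouch replicate 1 stood well below. The members lower in soil plate were CsaV3_1G009950.1, CsaV3_6G008590.1, CsaV3_4G027210.1, CsaV3_6G001440.1 and CsaV3_3G044470.1. These 6 were named after their values were seen.

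The growth systems were next compared with edgeR, a count model that scales libraries by TMM factors (trimmed mean of M values, which set the typical gene to no change). The factors were 0.885 ± 0.050 in soil plate and 1.14 ± 0.120 in pouch (SD, n = 3 each). All 100 members passed the filter on low counts, which their level ensured. By the quasi-likelihood test 0 of the 100 members were called at an adjusted p under 0.05, where 7.85% of the 17794 genes tested and 16.2% of the candidates were. By direction, 0 members were called higher (4.92% of all genes) and 0 lower (2.93%). With library totals in place of TMM factors 0 were called as well (14.6% of all genes). The rule used this contrast, so nothing is read from these counts. At an unadjusted p under 0.05, 24 members passed, against 24.7% of all genes. DESeq2 called 2 members, both higher in soil plate, where it called 13.8% of all genes (8.25% higher). Limma-voom called 1 member, also higher, where it called 12.5% of all genes (8.23% higher). Without pouch replicate 1, edgeR called 5 members, all higher, where it called 11.3% of all genes (8.17% higher). Of the 4197 candidates, DESeq2 called 1078 (791 higher) and limma-voom 1103 (791 higher). Without pouch replicate 1, edgeR called 1112 of them (894 higher).

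All 100 members had a log2 fold change above 0 (46.4% of all genes and 54.7% of the candidates did). This follows from the choice and the scaling, because the members were chosen to be level on library totals. The TMM factors add 0.36 to the soil plate minus pouch difference in mean log2 CPM of every gene alike. Fitted log2 fold changes shift by about that much, with small differences between genes. The median over the members was 0.33, a 1.26-fold difference, with a range of 0.14 to 0.51. The median over all genes tested was -0.06. Standard errors of the members were 0.15 to 0.24, and the lowest adjusted p among them was 0.0742. A value above the threshold does not show that a level was equal.

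CsaV3_3G007560.1, the most even member on library totals, shows the shift. With TMM factors it had 162.5, 157.8 and 174.6 CPM in soil plate, against 143.1, 121.2 and 126.2 CPM in pouch. Every soil plate library then lay above every pouch library, with a mean of 165 ± 8.69 CPM in soil plate against 130.2 ± 11.5 CPM in pouch (SD, n = 3 each). Its fitted log2 difference was 0.34, with an SE of 0.17 (edgeR adjusted p = 0.242). In deposited TPM the same transcript had 60.3, 54.3 and 57.6 in soil plate, against 55.2, 65.7 and 70.4 in pouch, with a mean of 57.4 ± 3.02 TPM in soil plate against 63.8 ± 7.81 TPM in pouch (SD, n = 3 each). Its mean was thus level, higher or lower in soil plate according to the scale, and in TPM the groups overlapped.

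The whole set moved by about the same shift. So did the candidates, whose median log2 ratio of soil plate to pouch was -0.29 on library totals and 0.07 on the TMM scale. The members' counts on the TMM scale therefore restate the shift and the choice. With library totals, 39 members had a higher and 61 a lower mean in soil plate (67.2% of the candidates were lower), and the median ratio of soil plate to pouch was 0.991. With TMM factors all 100 were higher, the median ratio was 1.26, and in 55 the groups did not overlap, where 28.3% of the candidates lay wholly above in soil plate. With TPM 3 were higher and 97 lower in soil plate (74.0% of the candidates were lower) and the median ratio was 0.900. In 19 members every soil plate library was below every pouch library in TPM, as in 38.4% of the candidates. The summed TMM-scaled level was 13752 ± 423 CPM in the soil plate libraries against 10941 ± 1256 CPM in the pouch libraries, and the summed TPM was 7844 ± 451 against 8492 ± 823 (SD, n = 3 each). No external standard was used here to say which scale follows RNA per cell, and fewer cells of a type and less RNA per cell cannot be told apart in such bulk samples.

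**Figure D3:**
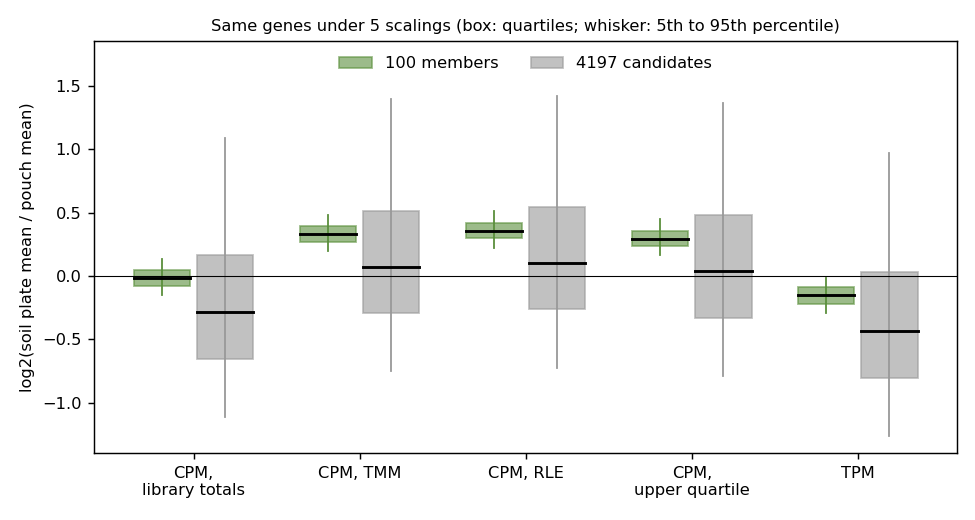
Log2 of the soil plate mean over the pouch mean (vertical axis) for the same 100 members and 4197 candidates under 5 scalings; boxes show the quartiles, black lines the median and whiskers the 5th to 95th percentile. The members' median is -0.01 with library totals, 0.33 with TMM, 0.36 with RLE, 0.29 with upper quartile scaling and -0.15 with TPM.

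Membership followed the scale as well. When the same 4197 candidates were ranked by the CV of TMM-scaled CPM, 0 of the 100 members were chosen again, and with RLE factors 0. With upper quartile factors 1 was, CsaV3_3G044470.1, which had 126.7, 115.0 and 118.5 CPM on library totals in soil plate, against 133.3, 149.2 and 133.7 CPM in pouch. Its TMM-scaled levels were 134.6, 132.3 and 140.2 CPM in soil plate, against 133.7, 123.5 and 111.4 CPM in pouch. With TPM 40 members were chosen again. No member was chosen under all of these scalings, and 59 were chosen under none but library totals. The members' median CV was 16.1% with TMM factors (candidates 21.8%) and 11.8% with TPM (candidates 30.4%).

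The 100 candidates with the lowest CV under TMM factors had a median log2 ratio of soil plate to pouch of -0.37 on library totals, about the size of the same shift. Their CV had a median of 6.40% on the TMM scale and 16.8% on library totals. When the libraries were instead scaled so that the geometric mean of the stable set was equal in each, edgeR called 2457 genes, of which 22.3% were higher in soil plate. With TMM factors it called 1396, of which 62.7% were higher. The 2 scalings differ by a factor for each library, common to all genes in it. These factors also differ within a group, so the spread within a group changed too. In pouch replicates 1, 2 and 3 the TMM factors were 0.997, 1.21 and 1.20, against 1.003, 1.002 and 1.015 when scaled on the members. The median log2 fold change over all genes was -0.40 when scaled on the members and -0.06 with TMM factors.

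To read stability in data that did not take part in the choice, the set was chosen again on 5 libraries and then read in the library left out. Without soil plate replicates 1, 2 and 3 in turn, 73, 64 and 40 of the members were chosen again. Without pouch replicates 1, 2 and 3 in turn, it was 59, 69 and 70. Of the 100 members, 24 were chosen in all 6 of these sets, among them each of the 6 with the lowest CV. A further 16 were chosen in 1 set only.

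In the library left out, the chosen genes deviated from their mean in the other 5 by a median of 0.12 to 0.34 on the log2 scale without regard to sign. The smallest deviation was in pouch replicate 3, at 0.12 against 0.35 for the candidates. In pouch replicate 2 it was 0.15 against 0.43, in soil plate replicate 1 0.16 against 0.30, and in soil plate replicate 2 0.18 against 0.40. In pouch replicate 1 it was 0.23 against 0.24, and in soil plate replicate 3 0.34 against 0.38. In these last 2 libraries the genes chosen elsewhere were about as far off as the median candidate. In soil plate replicate 3, 90 of the 100 genes chosen without it were lower than their mean elsewhere, with a median log2 deviation of -0.33. Of all candidates 77.6% were lower there too, with a median of -0.31. The genes chosen without it had had a median CV of 5.62% over the other 5 libraries.

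**Figure D4:**
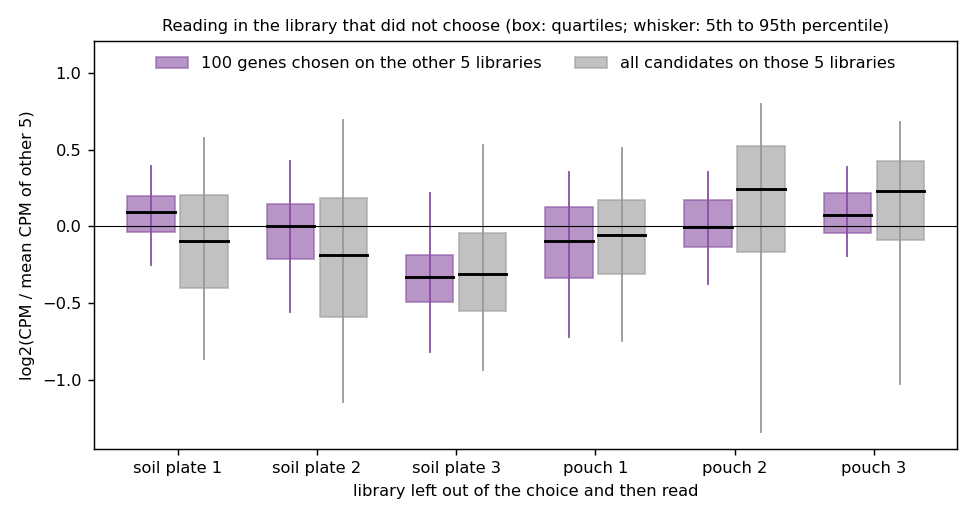
Log2 of CPM in the library left out over the mean CPM of the other 5 (vertical axis), for the 100 genes chosen on those 5 and for all candidates; boxes show the quartiles, black lines the median and whiskers the 5th to 95th percentile. The chosen genes are closer to 0 than the candidates in 4 libraries, and in soil plate replicate 3 the medians are -0.33 for the chosen genes and -0.31 for the candidates.

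Choosing within a single growth system gave other genes. The 100 with the lowest CV over the soil plate libraries held 8 members, and the 100 over the pouch libraries held 7. The 2 sets shared 0 genes. Those chosen in soil plate had a median CV of 2.21% there and 15.5% among the pouch libraries, where all candidates had 15.3%. Those chosen in pouch had 1.83% there and 17.7% among the soil plate libraries, where all candidates had 16.1%. With 3 libraries to choose on, a low CV in a growth system was thus not met by a low CV in the other.

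Ratios between members do not depend on how a library is scaled. The measure M, the mean SD of the log2 ratio of a gene to each other gene of the set, averaged 0.150 and ran from 0.117 to 0.195. It was read in the same libraries that chose the members for a low CV. A low M thus follows from the choice and is a description. The lowest M belonged to CsaV3_1G004400.1 and the highest to CsaV3_6G012590.1. Within soil plate the mean M was 0.150 and within pouch 0.133. The 100 candidates with the lowest CV under TMM factors had a mean M of 0.123 among themselves, and those under TPM 0.167, so the set chosen on library totals was not the one with the most even ratios.

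Removal of the member with the highest M at each step lowered the mean to 0.114 with 50 members left, 0.0881 with 20 and 0.0690 with 10. The last pair, with 0.0417, was CsaV3_6G008680.1 (rank 78 by CV) and CsaV3_3G028460.1 (rank 97). The steps picked this pair in the same libraries, so its low M is a description. Read sampling is part of it, with a CV of 1.83% for CsaV3_6G008680.1 alone. CsaV3_6G008680.1 had 87.0, 85.0 and 67.4 CPM in soil plate, against 83.0, 87.6 and 81.9 CPM in pouch. CsaV3_3G028460.1 had 60.8, 55.0 and 45.1 CPM in soil plate, against 54.4, 56.7 and 54.4 CPM in pouch. Both were lowest in soil plate replicate 3, and their ratio stayed between 1.43 and 1.54 in soil plate and between 1.51 and 1.55 in pouch. Removal by steps did not find the pair with the lowest observed spread of the ratio. Over all 4950 pairs of members, looked through after their values were seen, the lowest SD of the log2 ratio was 0.0151, for CsaV3_3G026570.1 (rank 30 by CV) over CsaV3_3G007220.1 (rank 44). That ratio lay between 1.04 and 1.07 in soil plate and between 1.04 and 1.07 in pouch. Read sampling alone gives CVs of 2.19% and 2.25% for these 2 genes, a wider spread than that SD. As the lowest of 4950 pairs, read in the libraries that chose the members, the value does not show an unusually even pair.

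**Figure D5:**
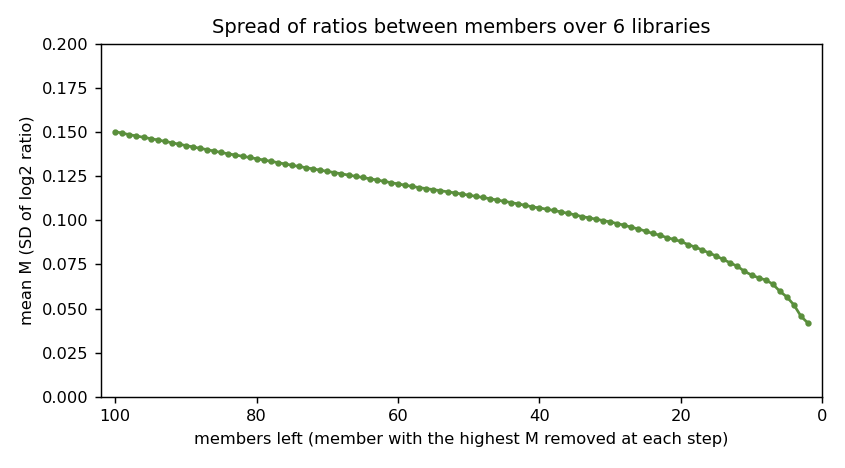
Mean M (vertical axis, SD of the log2 ratio between members over 6 libraries, from 0) as the member with the highest M is removed step by step (horizontal axis, members left, from 100 to 2). It goes from 0.150 with all members to 0.0690 with 10 and 0.0417 with the last pair. The removal used the same 6 libraries, so the fall is a description.

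Outside the set, the model whose levels over the 6 libraries were most like the members' geometric mean was CsaV3_3G040290.1 (1474 bases). The SD of its log2 ratio to that mean was 0.0648, inside the members' own range of 0.0492 to 0.164. It had 38.6, 41.8 and 39.6 CPM in soil plate, against 41.2, 42.7 and 43.8 CPM in pouch, and was left out only by the minimum of 50 CPM. The measure covers 6 libraries and says nothing of function.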

How the data were processed

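Shoot apex RNA was quantified in 6 libraries, grouped by sample title. Per the submitters' processing notes, fastp 0.23.4 and kallisto 0.46.1 were used; the index and options are not given in the sources used here. Each table gives, per the file headers, a length, an effective length, estimated counts (expected counts, partly fractional) that the authors deposited without normalization, and deposited TPM values, scaled by effective length to the same total in each library.

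CPM was computed from estimated counts and library totals. For tests, counts were rounded, filtered with filterByExpr, scaled by TMM and compared (soil plate minus pouch) with edgeR 4.0.16 glmQLFTest in R 4.3.3, without a replicate block, with Benjamini-Hochberg adjustment over all 17794 genes. DESeq2 1.42.0 and limma 3.58.1 were alternatives. The standard error is the absolute log2 fold change over the square root of F. Counts were held as whole within 1e-06. Both the test and the choice by CV were tried on simulated data. For the choice, the planted genes had far less spread than all others. That trial therefore says nothing of members close to the limit of the rule.

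The members, lists and tests were chosen with earlier results of these data known. Members were named by lowest CV (6), the limit of the rule, level (3 highest and 3 lowest), length, the last pair by M, and, had there been any, calls by edgeR and choice under every scaling. Depth was 28.9 to 47.8 M (mega) counts per library.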

Additional observations from a re-analysis of the deposited data

How the results depend on the processing

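Of the 100 members, 0 were chosen again with TMM, 0 with RLE, 1 with upper quartile scaling and 40 with TPM values. By construction each of these changes the level of a whole library, and TPM also divides each model by its effective length. A minimum of 20 CPM kept 59 and a minimum of 100 CPM kept 40, which is every member at or above it. Soil plate libraries alone kept 8 and pouch libraries alone 7, and leaving out a library kept 40 to 73. Leaving out models with fractional counts, keeping the most abundant or the UNG identifiers, or replacing the CV by the SD of log2(CPM + 1) or by range over mean kept 82 to 99. The members' median CV became 16.1% with TMM, 17.1% with RLE, 14.9% with upper quartile scaling and 11.8% with TPM. Their mean M was 0.133 within pouch.

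The members' median log2 fold change, 0.33, turned to -0.013 with library totals, -0.14 with log2(TPM + 1) and -0.15 with log2(TPM + 0.1), and was 0.0056 when scaled on the members. It ran from 0.28 to 0.44 when a library was left out. Called members numbered 2 with DESeq2 and 1 with limma-voom, all higher in soil plate, and 0 to 5 when a library was left out. DESeq2 called CsaV3_5G001560.1 and CsaV3_2G006590.1 (limma-voom the first alone). The 5 came without pouch replicate 1 and were CsaV3_3G031350.1, CsaV3_4G009150.1, CsaV3_7G003660.1, CsaV3_1G045710.1 and CsaV3_3G046420.1. All were named after their values were seen. The genes called in all, 1396, became 2593 with library totals, 2457 when scaled on the members, 2454 with DESeq2, 2228 with limma-voom, and 103 to 2102 when a library was left out. The cause was not tested.

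A replicate block (replicate number as a covariate) gave 628 called genes of 17794 tested and 0 called members of 100. The rule used this contrast, so nothing is read from the members' count. Deviations of same-numbered libraries had correlations across genes of -0.03, -0.02 and -0.03, so no effect shared by a number was seen. The labels do not say whether equal numbers mark a shared batch, and these correlations cannot settle it. The lowest count of the members was 1375. The minimum of 50 CPM and the low CV keep their counts at about this level or above, so this is no test of depth.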
